A study of Mus musculus with 3 samples.

Results

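The small leucine-rich proteoglycans are secreted proteins of the extracellular matrix, and 5 of them, *Dcn* (decorin), *Lum* (lumican), *Bgn* (biglycan), *Fmod* (fibromodulin) and *Prelp*, were examined here together with *Dpt* (dermatopontin), a small matrix protein that binds decorin. These 6 genes were chosen by name with measured levels from the same table in view, so their levels across cell types are given as a description, with no test. All 6 had a row among the 9781 gene rows used. Each was followed across fibroblast types, smooth muscle, basal and luminal epithelium and barcode sets, and its UMIs in cells that should lack it were set against those of *Col1a2* and *Col3a1*, fibrillar collagen chains that mark fibroblasts, as a check on free RNA (RNA of broken cells that enters droplets with intact ones).

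Small leucine-rich proteoglycans carry a core of leucine-rich repeats with which they bind collagen fibrils, and most hold chondroitin, dermatan or keratan sulfate chains. Decorin and biglycan form one class of the family, with chondroitin or dermatan sulfate chains, whereas lumican, fibromodulin and *Prelp* form another, in which the first 2 can carry keratan sulfate. Their known role in connective tissue is to set the width and spacing of collagen fibrils, and decorin and biglycan also bind TGF-beta. Dermatopontin is not of the leucine-rich repeat family, and it is known for binding decorin and for helping collagen fibrils to form. In the prostate, fibroblasts and smooth muscle make up most of the stroma around epithelial ducts, whose basal cells lie on the basement membrane and whose luminal cells line the lumen.

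Droplet single cell RNA-seq was performed on 3 mouse samples labelled normal, with 1 library each, from male urogenital sinus at E18.5 (the embryonic structure that gives rise to the prostate) and from prostate at P14 and at P35. The labels give no genotype, strain or number of animals for these libraries, and none is described as treated. The study's methods place its mice on a mixed C57BL/6 and 129S1/SvImJ background and describe reporter mice in which *Osr1-Cre* turns on a membrane GFP, without tying the libraries to them, and the table holds a row for *EGFP*. Cells of all samples sat in 1 table whose barcodes ended in 1, 2 or 3, and no label ties an ending to a sample. These barcode sets 1, 2 and 3 were therefore not assigned to ages, and their values are given side by side, without a mean or SD. Cell numbers stated in the study equal the barcode count of one set and differ from the others, and were not used as a map.

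The sets held 766, 5350 and 8360 cells after 97 cells with fewer than 200 detected genes were left out of set 3. Set 1 stood apart in depth, at a median of 19357 UMIs per cell (distinct molecular barcodes, so that each captured mRNA counts once), against 1738 and 1801 in sets 2 and 3. Between 49.4% and 52.7% of UMIs fell in the gene rows at hand, and 14 barcodes occurred in more than 1 set. Levels are given as CPM, in which the UMIs of a gene are summed over the cells of a class and scaled to 1000000 UMIs of that class. All intervals are exact at 95% and cover counting error only, since there were no replicate libraries. They treat each UMI as independent, although UMIs of a gene cluster within cells, so they do not cover the spread between cells either.

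Classes were named from marker genes, none of them a member, and the 6 genes were kept out of the clustering. Of the 13 fibroblast markers with a row, the 3 fibroblast-like clusters carried 12, 12 and 11. One of these clusters was high in *Mfap5*, an elastic microfibril component, at 423, 602 and 893 CPM in sets 1, 2 and 3, against 6.75, 177 and 274 CPM in the second cluster. The second was high in *Col15a1*, a basement membrane collagen, at 94.5, 425 and 620 CPM against 35.6, 62.3 and 282 CPM. They are called Mfap5-high and Col15a1-high fibroblasts below. Their wider type markers overlapped. On a list of *Tcf21* and *Col15a1* type markers they carried 5 and 6 of 7, and on a list of adventitial type markers 5 and 3 of 12. Another cluster, led by *EGFP* and *Tmem119*, carried all 7 mitosis markers with a row. This Tmem119-led cluster held 222 of the 397, 185 of the 1803 and 90 of the 2661 fibroblast-like cells in sets 1, 2 and 3. Values for all fibroblast-like cells below pool the 3 clusters, so they rest on unlike mixtures in the 3 sets. Mfap5-high fibroblasts numbered 153, 905 and 1122 cells in the 3 sets, and Col15a1-high fibroblasts 22, 713 and 1449. The 22 Col15a1-high cells of set 1 were shallow for that set, with a median of 1680.5 UMIs. There were 64, 1599 and 1961 smooth muscle-like cells, 21, 967 and 1731 basal-like cells and 95, 435 and 961 luminal-like cells. Some named clusters also carried markers of another class, with 5 of 13 fibroblast markers in smooth muscle-like cells, 5 of 9 basal markers in luminal-like cells, 7 of 10 luminal markers in 1 of the 2 basal-like clusters (18, 539 and 528 cells), and 9 of 10 smooth muscle and 7 of 13 fibroblast markers in pericyte-like cells.

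The genes lie in a few places of the genome, given here for the build GRCm38.p6 from RefSeq. *Dcn* (chromosome 10, 97479500 to 97518163) and *Lum* (chromosome 10, 97565501 to 97572703) are neighbours 47.3 kb apart, and *Kera*, another member of the family, follows 34.3 kb after *Lum*. *Prelp* (chromosome 1, 133910304 to 133930102) lies 615 bases from the family member *Optc* on one side and 107 kb from *Fmod* (chromosome 1, 134037254 to 134048280) on the other. *Bgn* (chromosome X, 73483601 to 73495936) and *Dpt* (chromosome 1, 164796663 to 164824274) have no neighbour of the family.

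RefSeq promoter windows of 300 bases were at hand for 4 of the 6 genes. Those of *Bgn*, *Dpt* and *Fmod* reach from upstream of the gene's start to shortly past it, whereas that of *Prelp*, at chr1:133921352-133921651 on the minus strand, lies inside the gene and does not reach the start given above. The first 3 are shown because these genes were highest in different cell classes, namely Col15a1-high fibroblasts, Mfap5-high fibroblasts and basal-like cells in sets 2 and 3. They run 5′ to 3′ on the plus strand, at chrX:73483351-73483650, chr1:164796413-164796712 and chr1:134037004-134037303 of GRCm38.p6, with motif matches in capitals.
Bgn: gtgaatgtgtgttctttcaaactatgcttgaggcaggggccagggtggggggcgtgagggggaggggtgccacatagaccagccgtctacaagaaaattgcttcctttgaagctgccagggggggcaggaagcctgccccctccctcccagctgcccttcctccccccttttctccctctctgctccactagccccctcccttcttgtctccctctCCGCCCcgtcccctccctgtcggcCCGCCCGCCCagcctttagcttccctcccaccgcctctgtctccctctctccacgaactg
Dpt: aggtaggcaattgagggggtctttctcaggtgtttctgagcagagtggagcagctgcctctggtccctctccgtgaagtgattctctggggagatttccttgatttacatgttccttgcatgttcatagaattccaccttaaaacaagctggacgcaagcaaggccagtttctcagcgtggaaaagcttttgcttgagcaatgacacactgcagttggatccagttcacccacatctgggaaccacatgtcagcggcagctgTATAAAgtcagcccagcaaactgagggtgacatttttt
Fmod: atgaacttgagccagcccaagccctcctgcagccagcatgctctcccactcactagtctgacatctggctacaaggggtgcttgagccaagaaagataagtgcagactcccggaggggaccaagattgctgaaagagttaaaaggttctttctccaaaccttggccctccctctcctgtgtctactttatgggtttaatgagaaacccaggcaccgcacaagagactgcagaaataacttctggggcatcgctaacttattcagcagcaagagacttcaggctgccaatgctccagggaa
Each window was searched on both strands for the letters of 3 known promoter motifs. The GC box was searched as GGGCGG, the box bound by the general transcription machinery as TATAAA, and the AP-1 site as TGANTCA. The *Bgn* window matched GGGCGG 3 times, in each case on the minus strand and upstream of the start, with the last 2 matches overlapping, and 35.7% of all 32851 promoter windows hold this motif. The *Dpt* window matched TATAAA once, 12 to 17 bases downstream of the first base of the gene, and 13.6% of windows hold it. TGANTCA, present in 7.81% of windows, was in none of the 4, and neither the *Fmod* window nor that inside *Prelp* matched any of the 3 motifs.

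**Figure D1:**
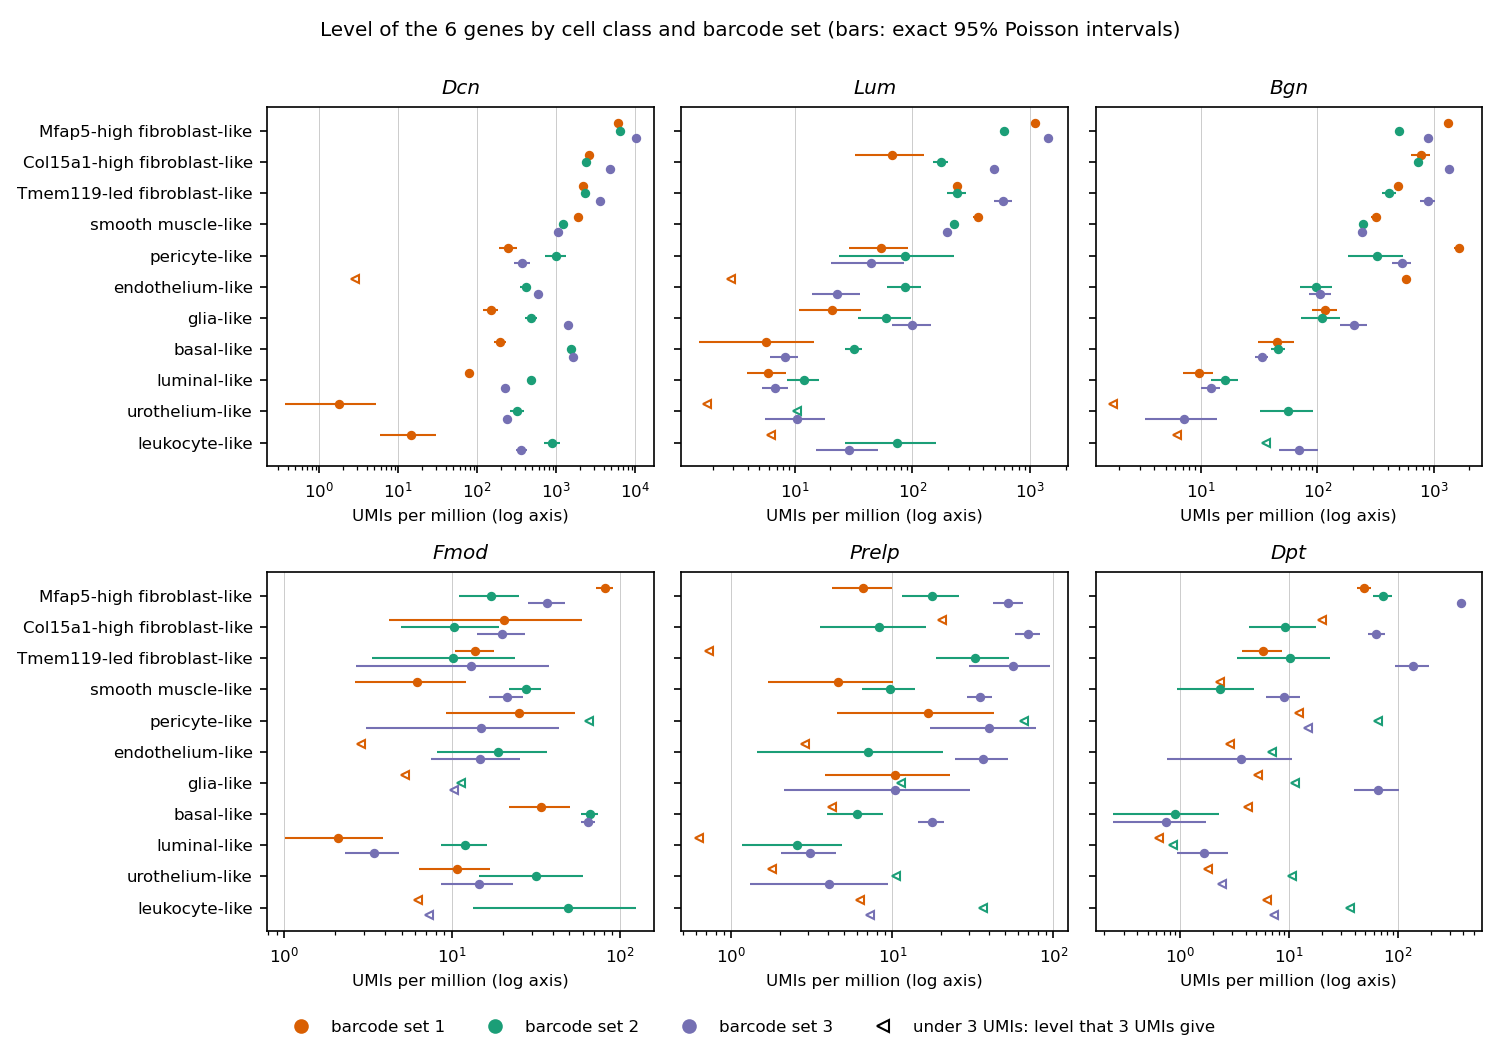
Levels of the 6 genes (CPM, log axis) in each named cell class except neuron-like cells, with 1 marker per barcode set and exact 95% counting intervals. *Dcn*, *Lum* and *Dpt* were highest in Mfap5-high fibroblasts in every set, *Bgn* in Col15a1-high fibroblasts in sets 2 and 3 and in the 10 pericyte-like cells of set 1, and *Fmod* reached 66.2 and 64.4 CPM in basal-like cells of sets 2 and 3.

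*Dcn*, the most studied member of the family, was at 6038 CPM (interval 5957 to 6120) in Mfap5-high fibroblasts of set 1, 6363 CPM (6235 to 6493) in set 2 and 10110.5 CPM (9961 to 10261) in set 3. In Col15a1-high fibroblasts it was at 2585, 2396 and 4843 CPM, and in the Tmem119-led cluster at 2207, 2293 and 3625 CPM. Smooth muscle-like cells followed at 1896, 1234 and 1062 CPM. The order of these 4 classes was the same in every set, and only the second and the third overlapped in their intervals, in set 2. Outside the stroma *Dcn* spread widely between sets, from 1.78 CPM in urothelium-like and 0.95 CPM in endothelium-like cells of set 1 (3 UMIs and 1 UMI) to 1519 and 1639 CPM in basal-like cells of sets 2 and 3. These basal-like levels lay above those of smooth muscle-like cells of the same sets, with intervals that did not overlap. An unnamed cluster described with *Fmod* stood at 351, 1885 and 2183 CPM, and leukocyte-like cells at 14.6, 890.5 and 363 CPM. Glia-like cells stood at 149, 477 and 1427 CPM, in set 3 above smooth muscle-like cells with intervals apart.

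*Lum*, which shares its chromosomal neighbourhood with *Dcn*, was also highest in Mfap5-high fibroblasts, at 1099.6, 604 and 1425 CPM. Col15a1-high fibroblasts had 67.5, 174 and 493 CPM, below smooth muscle-like cells in set 1 (358 CPM) and set 2 (224 CPM) and above them in set 3 (196 CPM). In contrast to *Dcn*, *Lum* stayed at 5.64, 31.8 and 8.18 CPM in basal-like cells and at 5.88, 11.9 and 6.80 CPM in luminal-like cells. *Lum* in basal-like cells thus stood at 0.910%, 7.93% and 0.894% of its own level in all fibroblast-like cells together.

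*Bgn* had another order. In set 1 it was highest in the 10 pericyte-like cells, at 1650.4 CPM (1492 to 1821), followed by Mfap5-high fibroblasts at 1324 CPM and Col15a1-high fibroblasts at 769 CPM. In sets 2 and 3 Col15a1-high fibroblasts led, at 722 and 1347 CPM, over Mfap5-high fibroblasts at 504 and 893 CPM. The intervals of the highest class and the next did not overlap in any set. *Bgn* was further found in endothelium-like cells at 574, 98.1 and 106 CPM, where in set 1 it made up 604 of the 605 UMIs of the 6 genes. Basal-like cells had 45.1, 46.2 and 33.4 CPM and luminal-like cells 9.65, 16.2 and 12.2 CPM.

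*Dpt* was at 49.1, 72.5 and 379 CPM in Mfap5-high fibroblasts and at 6.75, 9.26 and 63.5 CPM in Col15a1-high fibroblasts, the first of these being 1 UMI. The Tmem119-led cluster had 5.76, 10.2 and 138 CPM, the second highest level in set 3. Smooth muscle-like cells had 0.77, 2.32 and 8.92 CPM. In basal-like cells 0, 4 and 5 UMIs of *Dpt* were counted, and in set 1 a sum of 3 UMIs would give 4.23 CPM. In glia-like cells of set 3 it reached 65.3 CPM from 19 UMIs, whereas no UMI was seen in the glia-like cells of sets 1 and 2.

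*Fmod* was the only member whose highest class changed from fibroblasts to epithelium between sets. It was at 81.0 CPM (71.9 to 91.1) in Mfap5-high fibroblasts of set 1, but at 16.9 and 37.0 CPM in those of sets 2 and 3. Basal-like cells had 33.8 CPM (21.7 to 50.3) in set 1, 66.2 CPM (58.9 to 74.1) in set 2 and 64.4 CPM (58.4 to 70.7) in set 3. In sets 2 and 3 the basal-like interval overlapped that of an unnamed cluster led by *Myod1*, the myogenic transcription factor, at 46.6 and 47.1 CPM. In set 2 it also overlapped those of leukocyte-like cells, at 48.8 CPM on 4 UMIs, and urothelium-like cells, at 31.6 CPM on 9 UMIs. That cluster held 18, 151 and 186 cells and carried smooth muscle, basal and fibroblast markers together. Smooth muscle-like cells had 6.14, 27.5 and 21.2 CPM of *Fmod*, and luminal-like cells 2.10, 11.9 and 3.40 CPM. In urothelium-like cells of set 1, *Fmod* gave 18 of the 22 UMIs of the 6 genes (81.8%).

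*Prelp*, which binds collagen and heparan sulfate, rested on few UMIs, and the intervals of its highest classes overlapped in every set. All fibroblast-like cells had 3.21, 17.0 and 61.0 CPM, smooth muscle-like cells 4.61, 9.60 and 35.1 CPM, and basal-like cells 1.41, 6.0 and 17.5 CPM. Over all kept cells *Prelp* was at 2.10, 8.10 and 21.2 CPM, so that every one of these classes was lowest in set 1 and highest in set 3. No UMI was seen in the 22 Col15a1-high fibroblasts of set 1, where 3 UMIs would give 20.2 CPM and the exact interval reaches 24.9 CPM.

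The first comparison asked which members separate the 2 stromal types, fibroblasts and smooth muscle. A gene was called where it was at least 2-fold apart in the same direction in every set, among genes with at least 20 UMIs in both classes together in each set, with sums below 3 UMIs set to 3. All 6 members passed this minimum, and 3 of them, *Dcn*, *Bgn* and *Dpt*, were called higher in fibroblast-like cells. Of all 5347 genes tested, 2.71% were called in this direction and 1.37% in the other, which held no member. The 6 genes were chosen with such levels in view, so the counts are not read against these shares.

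*Dcn* was 2.07-fold higher in fibroblast-like than smooth muscle-like cells in set 1 (1.99 to 2.16), 3.54-fold in set 2 (3.42 to 3.68) and 6.70-fold in set 3 (6.48 to 6.93). The interval of set 1 reached below the 2-fold limit. In set 1 the Tmem119-led cluster was 222 of the 397 fibroblast-like cells, against 185 of 1803 and 90 of 2661 in sets 2 and 3. *Dcn* in that cluster was at 2207 CPM in set 1, below 6038 CPM in Mfap5-high fibroblasts. The ratios of the sets thus rest on unlike mixtures of fibroblast clusters. *Bgn* was 2.72-fold, 2.28-fold and 4.65-fold higher. *Dpt* was 32.8-fold higher in set 1 (5.81 to 1300, on 196 UMIs against 1, and 10.9-fold with that UMI set to 3), 17.8-fold in set 2 and 23.4-fold in set 3. *Lum* stayed under the limit in sets 1 and 2, at 1.73-fold and 1.78-fold, and was 4.66-fold higher in set 3. In set 1 it was at 238 CPM in the Tmem119-led cluster and 1099.6 CPM in Mfap5-high fibroblasts, beside 358 CPM in smooth muscle-like cells. Its pooled ratio there thus also depended on the mixture. *Fmod* went both ways, at 7.14-fold higher in set 1 (3.59 to 16.7), 2.02-fold lower in set 2 and 1.28-fold higher in set 3, the last with an interval of 0.941 to 1.74. *Prelp* ratios were 0.696, 1.77 and 1.74, with an interval of 0.279 to 2.08 in set 1. Thinned to 900 UMIs per cell, only 3 members kept 20 UMIs in every set, and of these *Dcn* alone was called.

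The second comparison, between the fibroblast types, asked whether the proteoglycans were spread evenly over the fibroblasts. All 6 members were tested, and *Dcn*, *Lum* and *Dpt* were called higher in Mfap5-high fibroblasts, a call that 0.587% of the 4087 genes tested met. No member was among the 0.44% called higher in Col15a1-high fibroblasts. *Dcn* was 2.34-fold higher in set 1 (2.11 to 2.59), 2.66-fold in set 2 (2.54 to 2.78) and 2.09-fold in set 3 (2.04 to 2.14). *Lum* differed more, at 16.3-fold (8.85 to 34.0, on 3826 UMIs against 10), 3.47-fold (2.94 to 4.12) and 2.89-fold (2.68 to 3.12). *Dpt* was 7.28-fold higher in set 1 (1.29 to 289, on 171 UMIs against 1, and 2.43-fold with that UMI set to 3), 7.83-fold in set 2 (3.97 to 17.6) and 5.97-fold in set 3 (4.91 to 7.30). All 3 stood higher in the same type in each set.

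*Bgn* did not follow them. Its log2 ratio of Mfap5-high over Col15a1-high fibroblasts was 0.78 in set 1 (0.52 to 1.06), -0.52 in set 2 (-0.67 to -0.37) and -0.59 in set 3 (-0.69 to -0.50), so that it was higher in Mfap5-high cells in set 1 and higher in Col15a1-high cells in sets 2 and 3. *Fmod* was 4.0-fold higher in Mfap5-high cells of set 1 (1.36 to 19.5, on 282 UMIs against 3), with ratios of 1.65 (0.764 to 3.84) and 1.87 (1.23 to 2.87) in sets 2 and 3. *Prelp* had ratios of 2.14 in set 2 (0.941 to 5.47) and 0.759 in set 3 (0.575 to 0.999). Beside these, the collagens *Col1a2* and *Col3a1* differed by log2 ratios of 1.28, 1.12 and 0.50, and of 0.43, 1.10 and 0.85.

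The calls between the fibroblast types depended on how cells were classed. When each cell was classed alone from the UMIs of the marker lists, no member was called, and the log2 ratio of *Dcn* was -0.29, 0.36 and 0.64 in sets 1, 2 and 3. In set 1 the log2 ratios of *Lum*, *Bgn* and *Fmod* also turned negative, so that their direction there rested on how the cells were classed. After thinning to 900 UMIs *Lum* alone of 3 members tested was called, and *Dcn* had log2 ratios of 0.66, 1.42 and 1.04. The Col15a1-high cells of set 1 numbered 22 as reported, 20 after this thinning and 137 when each cell was classed alone. With sets 2 and 3 alone the same 3 members were called, a laxer call that 1.9% of 4200 genes met.

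**Figure D2:**
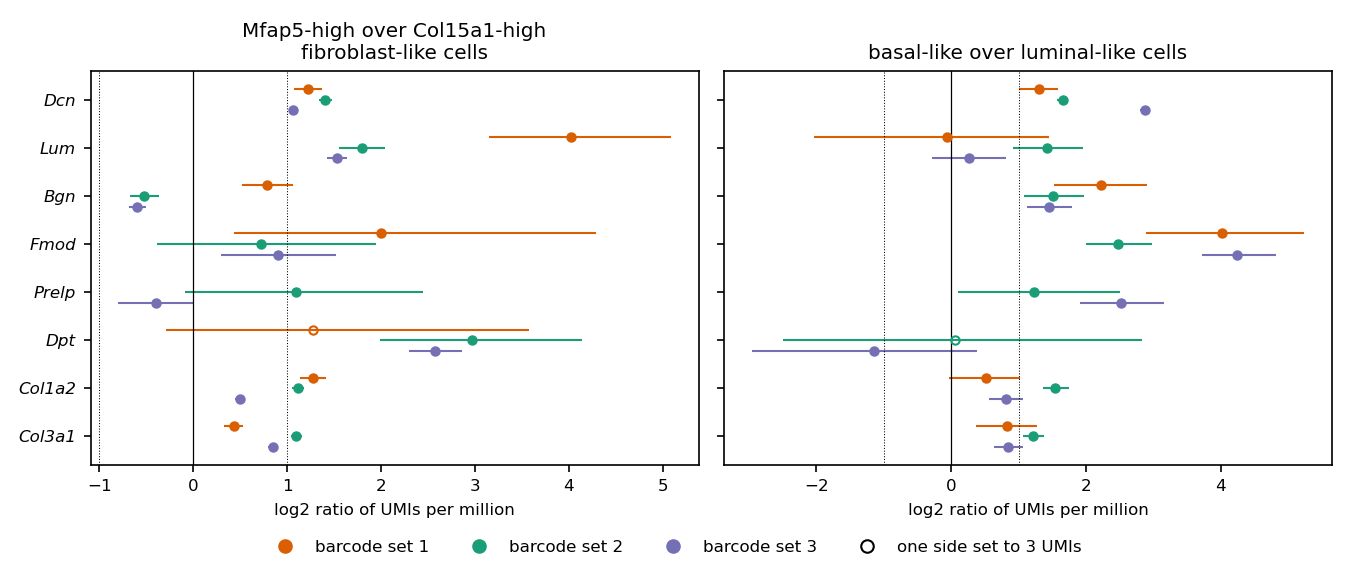
log2 ratios of summed UMI rates for the 6 genes and for *Col1a2* and *Col3a1*, Mfap5-high over Col15a1-high fibroblasts on the left and basal-like over luminal-like cells on the right, with 1 point per barcode set and exact 95% counting intervals. Open points have 1 side set to 3 UMIs, and the dotted lines mark 2-fold. *Bgn* lies on both sides of 0 in the left panel, and *Fmod* lies at 4.01, 2.48 and 4.24 in the right panel.

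Within a type, cells also differed. To compare cells at 1 depth, each was thinned to 900 UMIs, which left out 73 of the 905 and 94 of the 1122 Mfap5-high fibroblasts in sets 2 and 3 and none in set 1. It left out more of the Col15a1-high fibroblasts, with 2 of 22, 127 of 713 and 286 of 1449 cells. A *Dcn* UMI was then found in 75.2% of Mfap5-high fibroblasts of set 1 (67.5% to 81.8%), 95.6% in set 2 and 98.3% in set 3, and without thinning in 88.9%, 97.7% and 99.3%. The median thinned cell held 4, 5 and 8 *Dcn* UMIs, with a range between the 10th and the 90th percentile of 0 to 13, 1 to 11 and 2 to 18. In Col15a1-high fibroblasts the medians were 1, 2 and 3. The widest spread relative to the median was thus in set 1, where some Mfap5-high cells had none at all. The variance of thinned *Dcn* UMIs over cells was 5.17, 2.82 and 4.65 times the mean in Mfap5-high fibroblasts of sets 1, 2 and 3. In Col15a1-high fibroblasts it was 8.81, 2.32 and 4.14 times the mean. Independent UMIs would make the variance about equal to the mean, so the counting intervals are too narrow for the spread between cells.

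*Lum* marked part of the Mfap5-high cells, with a UMI in 42.5%, 33.8% and 59.7% of thinned cells. Without thinning, all Mfap5-high cells of set 1 with a *Lum* UMI also had one of *Dcn*, against 67.3% of the 52 cells without *Lum*. Cells with a *Lum* UMI held *Dpt* more often, in 31.7% against 1.92% in set 1, 9.85% against 3.93% in set 2 and 34.6% against 15.8% in set 3. They were also deeper, with medians of 25661 against 13466, 1399 against 1257 and 1474 against 1305 UMIs, and the part of depth in this was not tested. *Fmod* was found in 50.5% against 7.69% in set 1, but in 2.53% against 2.55% in set 2 and 5.04% against 3.34% in set 3. At least 3 of the 6 genes were detected in 29.4%, 16.6% and 39.1% of thinned Mfap5-high cells, in 10.0%, 6.66% and 20.5% of Col15a1-high cells and in 3.23%, 2.20% and 2.52% of smooth muscle-like cells.

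The makeup of the 6 genes' UMIs differed between classes accordingly. *Bgn* gave 15.4%, 6.65% and 6.92% of them in Mfap5-high fibroblasts but 22.3%, 21.7% and 19.7% in Col15a1-high fibroblasts. *Lum* gave 12.8%, 7.97% and 11.1% in the former and 1.96%, 5.24% and 7.22% in the latter. These are shares of 3′ UMI counts, not scaled for length, and serve only to compare the same gene between classes. In pericyte-like cells *Bgn* gave 82.9%, 23.1% and 52.7%. *Fmod* gave 12.1%, 3.96% and 3.65% in basal-like cells.

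**Figure D3:**
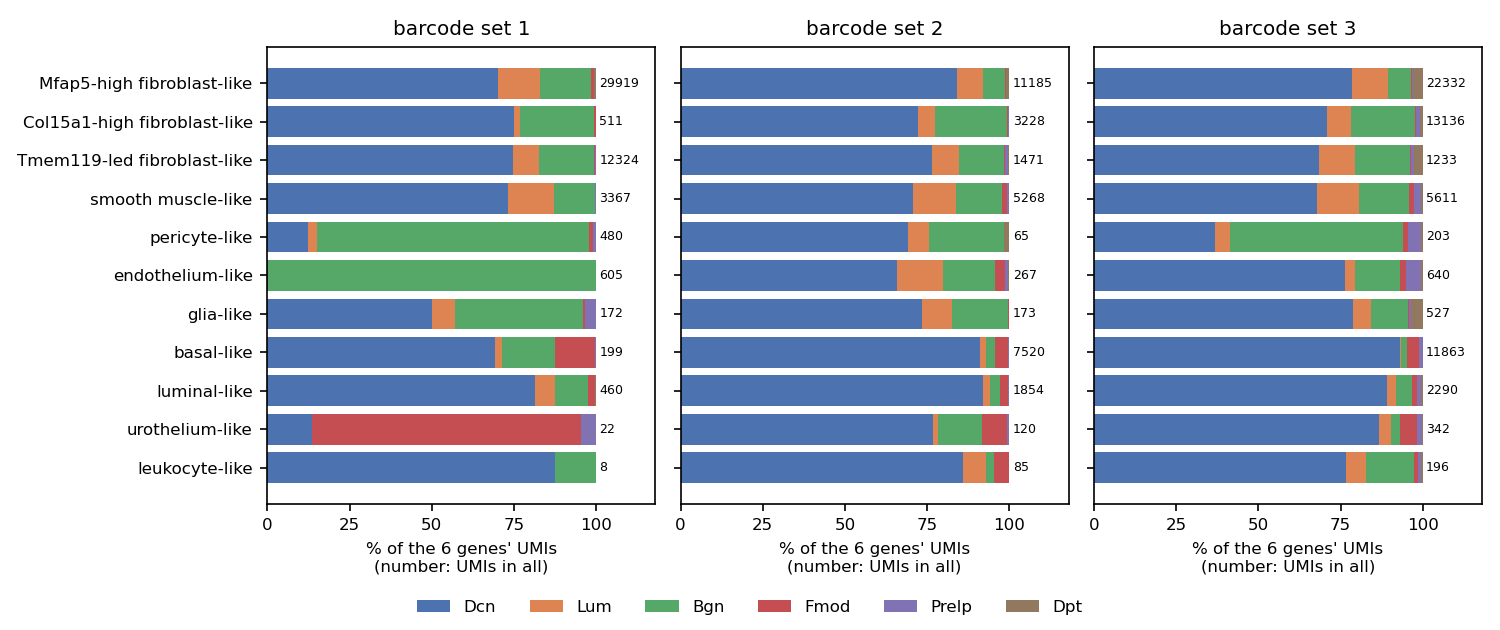
Share of each gene in the summed UMIs of the 6 genes (percent, 3′ UMI counts not scaled for length), stacked for each named cell class except neuron-like cells and each barcode set. The *Bgn* share was 19.7% to 22.3% in Col15a1-high and 6.65% to 15.4% in Mfap5-high fibroblasts, and *Fmod* took 3.65% to 12.1% in basal-like cells.

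The third comparison set fibroblast-like against epithelial cells. Against basal-like cells 4 of 6 members, *Dcn*, *Lum*, *Bgn* and *Dpt*, were called higher in fibroblast-like cells, as were 9.91% of 5612 genes, and no member was among the 4.92% called higher in basal-like cells. Against luminal-like cells 5 of 6 were called, *Prelp* in addition, as were 14.1% of 5742 genes, and no member was among the 8.2% in the other direction. Thus *Fmod* was the member called in neither, and *Prelp* was not called against basal-like cells, where set 1 had 25 UMIs against 1.

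The distances were unequal. *Dcn* was 20.2-fold higher in fibroblast-like than in basal-like cells in set 1 (17.1 to 24.0), but 2.88-fold in set 2 (2.79 to 2.96) and 4.34-fold in set 3 (4.25 to 4.44). *Lum* was 110-fold, 12.6-fold and 112-fold higher and *Bgn* 19.3-fold, 12.1-fold and 33.4-fold. *Dpt* was at least 5.95-fold higher in set 1, where basal-like cells had no UMI, and 46.3-fold and 280.5-fold higher in sets 2 and 3. *Prelp* was 2.84-fold and 3.48-fold higher in sets 2 and 3. *Fmod* was 4.86-fold lower in fibroblast-like than in basal-like cells in set 2 and 2.38-fold lower in set 3, whereas in set 1 the ratio was 1.30 (0.858 to 2.05).

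Against luminal-like cells, *Dcn* was 49.9-fold, 9.05-fold and 31.7-fold higher in fibroblast-like cells. *Lum* was 105-fold, 33.6-fold and 134-fold higher, and *Bgn* 90.2-fold, 34.7-fold and 91.7-fold. *Prelp* was 6.67-fold and 19.8-fold higher in sets 2 and 3. In set 1 luminal-like cells had no *Prelp* UMI, and with that sum set to 3 (0.63 CPM) the ratio was 5.10. *Fmod* was 20.9-fold higher in set 1, 1.14-fold in set 2 (0.723 to 1.81) and 7.94-fold in set 3.

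The collagens were then followed into the epithelium. *Col1a2* in basal-like cells stood at 1.33%, 6.47% and 1.41% of its level in fibroblast-like cells, and *Col3a1* at 1.46%, 5.78% and 1.40%. *Dcn* stood at 4.95% (4.16 to 5.86), 34.8% (33.7 to 35.8) and 23.0% (22.5 to 23.5), and *Fmod* at 77.1% (48.7 to 117), 486% (349 to 695) and 238% (192 to 298). *Lum*, at 0.910%, 7.93% and 0.894%, and *Bgn*, at 5.18%, 8.24% and 2.99%, lay closer to the collagens than *Dcn* did in sets 2 and 3, but in set 1 *Bgn* did not. In luminal-like cells *Dcn* stood at 2.0%, 11.0% and 3.15%, beside 0.938%, 2.22% and 0.801% for *Col1a2*. In both epithelial classes the point values of both collagens and of *Dcn*, *Lum*, *Bgn* and *Fmod* were highest in set 2, whereas *Prelp* and *Dpt*, with no UMI in some of these classes, gave no such order.

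**Figure D4:**
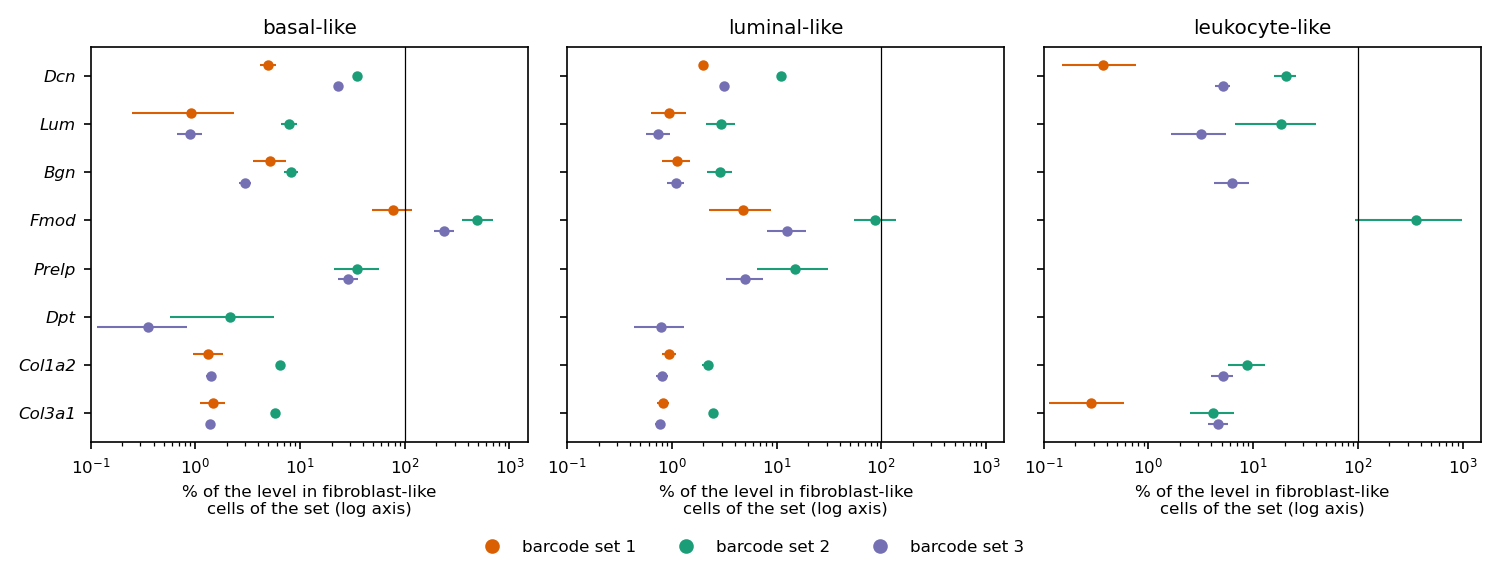
Level of the 6 genes and of fibroblast marker genes in basal-like, luminal-like and leukocyte-like cells as a percentage of their level in all fibroblast-like cells of the same barcode set (log axis), with exact 95% counting intervals. In basal-like cells *Fmod* reached 486% and 238% in sets 2 and 3 and *Dcn* 34.8% and 23.0%, while *Col1a2* was at 6.47% and 1.41%.

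Members were also counted relative to collagen. Per 100 UMIs of *Col3a1*, *Dcn* had 75.5, 83.1 and 159 UMIs in fibroblast-like cells and 94.0, 79.7 and 131 in smooth muscle-like cells. In basal-like cells it had 256 (185 to 357), 500 (472 to 530) and 2625 (2381 to 2901), and in luminal-like cells 184, 370 and 647. *Fmod* had 44.4, 21.8 and 103 in basal-like cells against 0.845, 0.259 and 0.605 in fibroblast-like cells. *Bgn* had 59.3, 15.2 and 53.6 in basal-like against 16.8, 10.7 and 25 in fibroblast-like cells. These 3 members thus stood higher relative to *Col3a1* in basal-like than in fibroblast-like cells in every set, with intervals apart. *Prelp* was also higher in sets 2 and 3, at 1.97 and 28.1 against 0.324 and 1.36. *Lum* had 7.41 (1.95 to 20.1), 10.5 (8.74 to 12.4) and 13.1 (9.70 to 17.4) in basal-like cells against 11.9, 7.62 and 20.5 in fibroblast-like cells, so that it was higher in set 2 and lower in set 3. In luminal-like cells *Lum* had 13.7, 9.13 and 19.6, with intervals that held or overlapped the fibroblast value. Leukocyte-like cells had 100 (29.9 to 334), 406 (240 to 722) and 176 (134 to 233) *Dcn* UMIs per 100 of *Col3a1*, on 7, 18 and 85 *Col3a1* UMIs, so that in sets 1 and 2 their interval overlapped that of basal-like cells and in set 3 it did not. Other classes outside the stroma spread as widely, with 1.75, 86.7 and 337 in endothelium-like cells and 37.5, 159 and 435 in urothelium-like cells, of which the first values rest on 1 and 3 *Dcn* UMIs. The part of free RNA in these ratios was not tested.

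Leukocyte-like cells, which should lack *Dcn*, served as a background for shares of cells. They numbered 38, 25 and 177, with median depths of 10313, 2027 and 2003 UMIs. Before thinning, basal-like cells were deeper, at 33000, 3451 and 2692 UMIs, as were luminal-like cells, at 46833, 6773 and 6711 UMIs. The part of depth in the shares below was not tested. *Dcn* of leukocyte-like cells stood at 0.372%, 20.4% (16.0 to 25.6) and 5.10% of the fibroblast level, beside 0.0506%, 8.83% and 5.12% for *Col1a2*. After thinning to 900 UMIs, a *Dcn* UMI was found in 2.63% of leukocyte-like cells in set 1 (0.067% to 13.8%), 43.5% in set 2 (23.2% to 65.5%) and 11.3% in set 3 (6.95% to 17.1%). In basal-like cells it was found in 19.0% (5.45% to 41.9%), 69.8% (66.7% to 72.6%) and 66.1% (63.8% to 68.3%), above the leukocyte-like share beyond counting error in sets 2 and 3. In luminal-like cells the shares were 4.26%, 36.7% and 13.8%, which in each set overlapped the leukocyte-like interval, so that a share above that background was not shown. Per 100 UMIs of *Col3a1*, however, luminal-like cells of set 3 had more *Dcn* (574 to 730) than leukocyte-like cells (134 to 233), whereas these intervals overlapped in sets 1 and 2. *Fmod* was found in 4.76%, 5.61% and 5.68% of thinned basal-like cells and in 0.696% and 0.422% of luminal-like cells in sets 2 and 3, with no thinned leukocyte-like cell holding it in any set, for which the exact intervals reach 9.25%, 14.8% and 2.17%. The basal-like share of *Fmod* thus lay above that background beyond counting error in set 3 alone. Without thinning, *Dcn* was found in 57.1%, 91.5% and 85.6% of basal-like cells and in 13.2%, 56.0% and 15.8% of leukocyte-like cells.

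Basal-like cells without any UMI of *Col1a2* or *Col3a1* were taken apart as a further check, chosen after these values were seen. They were 9, 659 and 1558 cells and were shallower than the others, with medians of 25464, 2512 and 2552.5 against 45226.5, 5919.5 and 6042 UMIs. In sets 2 and 3 their *Dcn* was at 1482 CPM (1433 to 1533) and 1614 CPM (1581 to 1649), against 1558 and 1736 CPM in basal-like cells with a collagen UMI. *Fmod* was likewise at 73.6 and 65.0 CPM against 58.3 and 61.9 CPM. *Lum*, however, was at 2.58 and 2.05 CPM against 62.9 and 32.4 CPM, and *Bgn* at 7.31 and 17.9 CPM against 87.7 and 95 CPM. In sets 2 and 3 basal-like cells thus held *Dcn* and *Fmod* also without a collagen UMI, with *Dcn* somewhat lower than in the other basal-like cells and the intervals apart in set 3 alone, whereas most UMIs of *Lum* and *Bgn* there were in cells that also held collagen.

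In set 1, with only 9 cells without collagen, *Dcn* was at 46.3 CPM (22.2 to 85.1, on 10 UMIs) against 259 CPM with it, and *Fmod* at 60.1 CPM against 22.3 CPM. Leukocyte-like cells without collagen had 760 CPM of *Dcn* in set 2 (476 to 1150, on 22 UMIs) and 153 CPM in set 3 (114 to 199.5, on 53 UMIs). Their *Fmod* was at 104 CPM in set 2 (21.4 to 303, on 3 UMIs) and 5.76 CPM in set 3 (on 2 UMIs). Luminal-like cells without collagen had 16.2, 388 and 170 CPM of *Dcn*, against 217, 620 and 469 CPM with it. Both basal-like clusters held *Dcn* in sets 2 and 3, at 1545 and 1461 CPM in one and 1512 and 1766 CPM in the other.

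**Figure D5:**
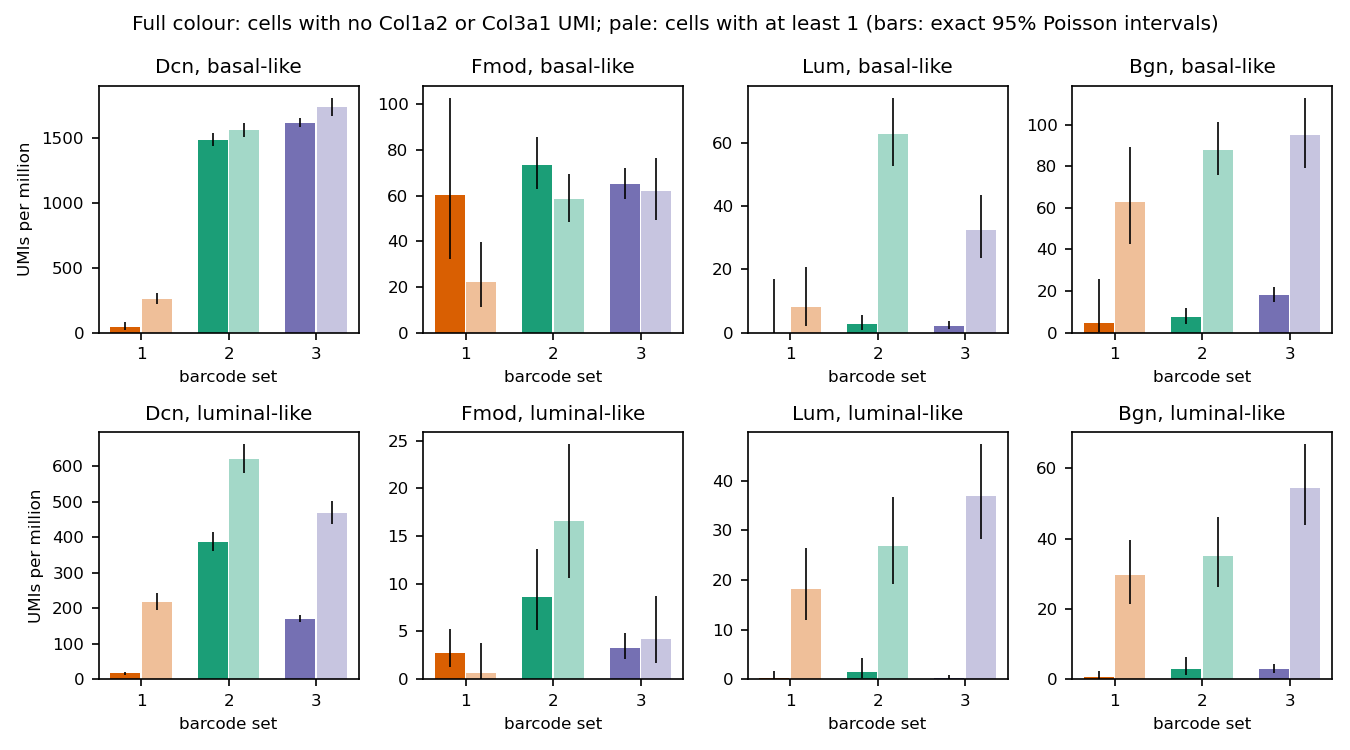
Levels of *Dcn*, *Fmod*, *Lum* and *Bgn* (CPM) in basal-like and luminal-like cells of each barcode set, split into cells with no UMI of *Col1a2* or *Col3a1* (full colour) and cells with at least 1 (pale), with exact 95% counting intervals. *Dcn* in basal-like cells was at 1482 and 1614 CPM without collagen in sets 2 and 3, and *Lum* at 2.58 and 2.05 CPM.

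Basal-like and luminal-like cells were compared directly after these values had been seen. Of 4 members with enough UMIs in every set, *Dcn*, *Bgn* and *Fmod* were called higher in basal-like cells, a call met by 2.45% of 5228 genes, and none was among the 1.97% called higher in luminal-like cells. *Fmod* was 16.1-fold higher in set 1 (7.43 to 37.8), 5.56-fold in set 2 (4.02 to 7.88) and 18.9-fold in set 3 (13.1 to 28.2). *Dcn* was 2.47-fold, 3.15-fold and 7.31-fold higher and *Bgn* 4.67-fold, 2.86-fold and 2.75-fold. *Lum* had ratios of 0.959, 2.67 and 1.20. The collagens were 1.42-fold, 2.92-fold and 1.76-fold higher for *Col1a2* and 1.78-fold, 2.33-fold and 1.80-fold for *Col3a1*, so that in set 2 *Dcn* and *Col1a2* differed between the epithelia by similar folds.

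Of 12 other small leucine-rich proteoglycans on a list, 5 had a row, and *Epyc* and *Podn* had enough UMIs for 4 of the comparisons. *Epyc*, an epiphycan known from cartilage, was at 52.9, 53.5 and 57.2 CPM in Mfap5-high fibroblasts and at 12.3 and 3.64 CPM in Col15a1-high fibroblasts of sets 2 and 3, and was called higher in the former. *Optc* (opticin), the neighbour of *Prelp*, had 7.68 (10 UMIs), 25.2 and 44.9 CPM in smooth muscle-like cells against 1.15, 4.06 and 6.35 CPM in Mfap5-high fibroblasts. *Kera* (keratocan), the neighbour of *Lum*, had 5.46, 16.3 and 2.89 CPM in Mfap5-high fibroblasts. *Podn* (podocan) had 15.4 and 21.9 CPM in Col15a1-high and 3.39 and 11.6 CPM in Mfap5-high fibroblasts of sets 2 and 3, and was called higher in fibroblast-like than in smooth muscle-like and luminal-like cells. *Epyc* was also called higher in fibroblast-like than in basal-like and luminal-like cells, and *Tsku*, *Kera* and *Optc* had too few UMIs to be compared.

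Enzymes that build chondroitin and dermatan sulfate chains had a row for 17 of 21 listed genes. Of 12 tested against smooth muscle-like cells 1 was called higher in fibroblast-like cells, *Xylt1*, which adds the first sugar of the chain, beside 2.71% of all genes, and the median log2 ratio was 0.81 against 0.12 over all genes. Against basal-like cells 4 of 12 were called, among them *Dse*, the epimerase that turns chondroitin into dermatan sulfate, beside 9.91% of all genes and with a median of 0.97 against 0.04. Against luminal-like cells 7 of 13 were called, beside 14.1% of all genes and with a median of 1.42 against 0.06. Between the fibroblast types 0 of 8 were called, beside 0.587% of all genes and with a median of 0.03 against 0. Levels of *Dse* were 27.2, 31.0 and 27.3 CPM in fibroblast-like against 4.23, 11.5 and 4.46 CPM in basal-like cells, and those of *Xylt1* 11.9, 55.8 and 32.9 against 4.23, 10.9 and 8.03 CPM. No enzyme was called lower in fibroblast-like cells.

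Fibrillar collagens and their partners, to which the proteoglycans bind, had a row for 14 of 27 listed genes. Of these, 7 of 14 were called higher in fibroblast-like than in smooth muscle-like cells, 13 of 14 than in basal-like cells and 11 of 13 than in luminal-like cells, with median log2 ratios of 1.41, 4.43 and 5.91. Over all genes the shares called were 2.71%, 9.91% and 14.1%, and the medians 0.12, 0.04 and 0.06. The list held *Col1a2*, *Col3a1*, *Col5a2*, *Col6a3*, *Fbn1* and *Pcolce*, which were also markers used to name the fibroblast-like clusters. The counts above were thus partly fixed by the naming and are not read against these shares. Between the fibroblast types 1 of 13 was called, *Col6a3*, beside 0.587% of all genes and with a median of 0.69 against 0. Between the epithelia, 3 of 11 were higher in basal-like cells, namely *Col5a2*, *Tgfb1* and *Fn1*, beside 2.45% of all genes.

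Across 33 points, each a named class with at least 20 cells in 1 set (the unnamed Myod1-led cluster left out), *Dcn* and *Lum* had the most alike patterns of any 2 members (Pearson r of log2 CPM with 10 CPM added 0.85), and *Bgn* and *Fmod* the least alike (0.13). Points of a set share a library and its depth, so these values are a description. Among 7175 genes, the pattern of *Lum* was most like those of *Col6a1* (0.92), *Col1a2* (0.91) and *Col6a2* (0.90), and that of *Dcn* like those of *Nbl1* (0.87), *Col6a1* (0.86) and *Col1a2* (0.85). *Bgn* was closest to *P3h3* and *Mxra8* (both 0.94) and *Fkbp7* (0.93), *Dpt* to *Svep1* (0.84) and *C1ra* (0.81), and *Prelp* to *C1ra* and *Kcnn3* (both 0.81) and *C1s1* (0.80). *Fmod* had no close match, with *Gm15867* at 0.65, *Eif5b* at 0.63 and *F3* at 0.61. Of neighbours outside the family, *Btg2*, beside *Fmod*, was at 521, 152 and 128 CPM in basal-like and 458, 186 and 582 CPM in Mfap5-high fibroblasts, and *Atp2b3*, beside *Bgn*, had 0 UMIs in Mfap5-high and Col15a1-high fibroblasts of every set.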

How the data were processed

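Per the labels, 10x 3′ libraries with v3 chemistry were made, whereas the study's methods name the v2 kit. Per the labels, Cell Ranger 3.1.0 and mm10 were used, and the methods add transgene sequences and filters on multiplets and mitochondrial RNA. The deposited table holds natural log values made by the authors, ln(1 + 10000 × UMI/total). UMIs were recovered as whole numbers for 100% of values above 0 (tolerance 0.05), although raw counts had been foreseen. Of 9784 rows, 1 not filled for every cell and 2 under a repeated name were left out. The rows cover part of the genome.

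Cells were integrated by barcode set (20 dimensions, 2000 features, without the 6 genes and *EGFP*) after the study's steps in Seurat 5.3.0 (R 4.3.3). Cell cycle scores were regressed out, 30 components were computed, and clusters were found on the first 20 of them at resolution 0.5. A class qualified for a cluster with at least 3 carried markers (a UMI in at least 10% of cells and 2 times the rate of the median cluster) and no fewer carried than not. Of qualifying classes, that with most markers among the cluster's 30 leading genes by fold gave the name, then that with the larger share carried, and with none among them the cluster stayed unnamed. Epithelial clusters were split into basal, luminal and urothelium likewise, without that last condition. This scoring was set after the clusters were seen. Scrublet in scanpy 1.11.5 put 3 cells of set 1 and 0 of the others over its threshold, and no cell was removed. Named genes were the 6 members, 3 lists, the 3 genes most like each member (1 of them not reported here) and chromosomal neighbours. Members and lists were chosen with earlier results of these data known.

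Intervals are exact Poisson for CPM, exact binomial (Clopper-Pearson) for shares and exact conditional for ratios. With 1 library per group, no p-value was computed. Sums below 3 UMIs were set to 3 in ratios, which for a sum of 0 lies below the exact upper limit. A ratio whose bound pointed against its UMIs was counted as no difference. Ratios and calls were tested on simulated data with known changes. Alternatives were other resolution, no integration, at least 500 genes, removal of the top 5% of doublet scores, thinning to 900 or 1200 UMIs, cells classed one by one, no minimum, mean deposited values, no mitotic cluster, and, added after seeing the data, sets 2 and 3 only and epithelial cells without collagen.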

Additional observations from a re-analysis of the deposited data

How the results depend on the processing

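The number of members called higher in fibroblast-like than in smooth muscle-like cells, 3 as reported, was 2 to 4 under the other settings that gave a value, except after thinning to 900 UMIs, where it was 1 of 3 members tested. Against basal-like cells it was 3 to 5 under all settings that gave a value, for 4 as reported. Against luminal-like cells it was 5, except after thinning to 900 or 1200 UMIs, where it was 3 of 3 members tested. In these, fewer members passed the minimum. Between the fibroblast types, 3 as reported, it was 1 after thinning to 900 or 1200 UMIs, 0 where each cell was classed alone and 3 or 4 otherwise, and the cause was not tested. Where each cell was classed alone, the log2 ratio of Mfap5-high over Col15a1-high fibroblasts in set 1 turned to -0.29 for *Dcn*, -0.45 for *Lum*, -0.38 for *Bgn* and -1.31 for *Fmod*, in set 3 to -0.34 for *Fmod*, and that of basal-like over luminal-like cells in set 1 to -0.30 for *Bgn*. Thinned to 1200 UMIs, *Prelp* turned to -1.16 in basal-like over luminal-like cells of set 2. Of 798 ratios under an alternative, 576 lay inside the interval reported (or, for mean deposited values, had its sign), 215 lay outside it and 7 changed sign. Without integration, smooth muscle-like and epithelial clusters held too few cells of set 1 for a value in every set, and fibroblast clusters split by set. With 9 basal-like cells without collagen in set 1, that alternative gave no count against basal-like cells. No paired analysis was possible because the 3 groups have 1 library apiece. Levels in the 22 Col15a1-high and 21 basal-like cells of set 1 are limited by the number of cells, and *Prelp*, *Fmod* and *Dpt* by few UMIs.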
